A study of Mus musculus with 76 samples.

Results

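RNA from the diencephalon of homozygous wild type C57BL/6J mouse embryos was compared between the embryonic days E17.5 and E11.5, across all genes. The comparison used 8 of the 76 samples of the series, 4 at each stage. Each sample pooled tissue from 1 litter, 6 embryos at E11.5 and 3 at E17.5, so a sample is a pool and not a single animal. The labels do not say that the pools of a stage came from different litters, and the p-values measure the spread between these samples. No allele was altered and no agent was given in these embryos. The series also held 8 RNA samples of homozygous embryos in which the mouse hs754 enhancer locus was replaced by its human counterpart, 4 at each stage, on the same strain. These humanized samples were used here only to check the direction of change. Polyadenylated RNA was sequenced, and the values are counts of read pairs on each gene, given below as CPM, the counts relative to the library total after scaling by TMM factors. Where genes are compared with each other, the level is given per kb of exon.

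The diencephalon is the part of the forebrain that forms the thalamus, the prethalamus, the habenula and, in the classical scheme, the hypothalamus. Early in its growth most cells are dividing progenitors that line the ventricle, are patterned by secreted signals such as Shh and Wnt ligands, and begin to release neurons under proneural transcription factors. Later the neurons extend axons, form synapses and express receptors and channels, while the remaining radial glia turn to making astrocytes and oligodendrocyte precursors. In bulk tissue, fewer cells of a type and less RNA per cell cannot be told apart. Stage likewise cannot be told apart from any difference in dissection or library preparation between the stages.

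The 8 wild type libraries held between 18124370 and 24272569 counts on genes. E17.5 replicate 1 stood apart. The Pearson correlation of its log2 counts with the other E17.5 replicates was 0.889 to 0.908, against 0.983 to 0.990 among those 3. With genes sorted by transcript GC content into 5 equal bins, the bin of lowest GC had a median deviation from the stage mean of -0.959 on the log2 scale in this library, and the bin of highest GC 0.703. In the other 7 libraries the same medians lay between -0.403 and 0.378 and between -0.255 and 0.177. Dixon's test singled out this library in 3589 of 18583 genes, and any other E17.5 library in 44 to 132. The reason was not tested. Fold changes are given with all samples. The value without this library follows where a gene is described in full, and also where leaving it out changed the call or moved the fold by over 1.5 times. A fit that removed within-stage GC trends is given with the processing alternatives.

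Of 56923 annotated genes, 18583 passed the filter on low counts. At a Benjamini-Hochberg adjusted p below 0.05 in edgeR's quasi-likelihood test, 5393 genes were higher at E17.5 (29.0%) and 4963 were lower (26.7%). With a change of at least 2-fold also required, 4432 genes rose (23.8%) and 3129 fell (16.8%). The rises were larger: 1212 genes rose at least 8-fold and 397 fell by that much, and 326 against 41 passed 32-fold. The median log2 fold change over all genes tested was -0.015. The samples of the stages did not overlap for 4643 genes that were higher at E17.5 (25.0%) and 4742 that were higher at E11.5 (25.5%). These shares of all genes called (29.0% and 26.7%) and without overlap (25.0% and 25.5%) are the background for the lists and genes below. Without E17.5 replicate 1, 6968 of 19351 genes rose (36.0%) and 7026 fell (36.3%). At 2-fold these were 5097 (26.3%) and 3976 (20.5%). Of 10356 genes called with all samples, 10292 were called in the same direction without that library, and 0 changed sign. The filter was passed at both stages by 14927 genes, only at E17.5 by 603 and only at E11.5 by 335, while 2718 passed through a mix of samples. A gene that passed only through 1 stage had to differ, so list counts that hold such genes are a description.

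**Figure D1:**
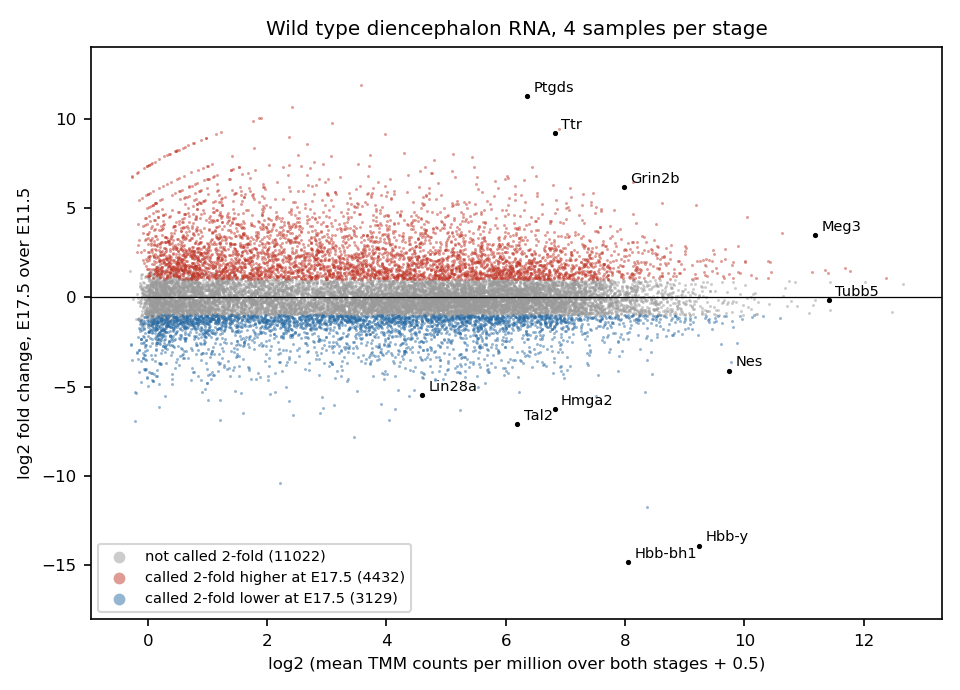
Each point is 1 of the 18583 genes tested in wild type diencephalon, plotted by its mean level over both stages (log2 of TMM CPM plus 0.5) and its log2 fold change at E17.5 over E11.5. Red points are the 4432 genes called at least 2-fold higher at E17.5, blue points the 3129 called at least 2-fold lower, and black points are named.

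The humanized embryos gave the same direction. Among the genes called 2-fold higher, 4331 could be tested in the humanized samples and 4326 had the same sign (99.9%). Among those called 2-fold lower, 3065 of 3067 had it (99.9%). The check shares no sample with the wild type comparison. In the fit of all 16 samples the stage effect differed between genotypes in 0 of 20234 genes (0.0%) at an adjusted p below 0.05 in edgeR, and DESeq2 also called 0. At an unadjusted p below 0.05, edgeR had 1610 genes and DESeq2 2103. Without wild type E17.5 replicate 1, edgeR had 873 at that threshold.

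Genes of DNA replication and mitosis fell almost without exception. Of 36 measured members, 0 rose, 35 fell and 1 did not pass the test, with a median log2 fold change of -3.58, and 0 rose and 35 fell without E17.5 replicate 1 (median -3.73). Over all genes tested 26.7% fell. Their summed level ran from 7823 to 8229 CPM at E11.5 and from 665 to 756 CPM at E17.5. Top2a, the topoisomerase that untangles chromosomes, had 564, 445, 831 and 569 CPM at E11.5 and 37.4, 65.1, 57.5 and 54.5 CPM at E17.5. Its stages did not overlap (log2 fold change -3.49 ± 0.26 (SE), edgeR adjusted p = 2.1e-06, and -3.36 without E17.5 replicate 1). Mki67, a nuclear protein of cycling cells, had 185, 169, 268 and 207 CPM at E11.5 and 24.5, 48.8, 37.8 and 47.4 CPM at E17.5, again without overlap (log2 fold change -2.39 ± 0.26 (SE), edgeR adjusted p = 2.4e-05, and -2.22 without E17.5 replicate 1). Mcm5, a subunit of the replicative helicase, had 169.6, 233, 159 and 178 CPM at E11.5 and 27.4, 10.004, 10.7 and 8.64 CPM at E17.5. Every E17.5 sample lay below every E11.5 sample, with replicate 1 the highest of its stage (log2 fold change -3.70 ± 0.38 (SE), edgeR adjusted p = 1.8e-05, and -4.25 without E17.5 replicate 1). Ccnd1, the cyclin of the first gap phase, went from 432 ± 63.3 CPM at E11.5 to 44.1 ± 22.5 CPM at E17.5 (SD, n = 4 each) (log2 fold change -3.29 ± 0.33 (SE), edgeR adjusted p = 1.3e-05, and -3.73 without E17.5 replicate 1). The largest fall of the list was that of Aurkb, the mitotic kinase (-4.39). Ccne2, a cyclin of the entry into replication, was the member that did not pass, at -0.42 ± 0.34 (SE).

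The promoters of 3 cell cycle genes that fell are shown because members of this list share short motifs known from cell cycle genes. The windows run from 250 bases before to 50 bases after the start of transcription, from RefSeq on build GRCm38.p6. Capitals mark matches on either strand to TTTGAA (the CHR element), CCAAT (the box bound by NF-Y), TGACGTCA (the CRE) or an E2F site, spelled TTTCCCGC, TTTCGCGC, TTTGCCGC or TTTGGCGC. In Mcm5, a pair of E2F matches on opposite strands overlap and form 1 run of capitals.
Cdk1, chr10:69352863-69353162, minus strand: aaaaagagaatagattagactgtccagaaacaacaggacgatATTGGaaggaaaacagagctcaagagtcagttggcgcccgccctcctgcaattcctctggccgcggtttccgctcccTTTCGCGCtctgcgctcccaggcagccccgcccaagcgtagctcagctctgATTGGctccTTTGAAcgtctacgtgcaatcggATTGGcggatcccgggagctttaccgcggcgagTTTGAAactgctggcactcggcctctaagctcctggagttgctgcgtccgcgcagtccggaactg
Ccnb1, chr13:100786437-100786736, minus strand: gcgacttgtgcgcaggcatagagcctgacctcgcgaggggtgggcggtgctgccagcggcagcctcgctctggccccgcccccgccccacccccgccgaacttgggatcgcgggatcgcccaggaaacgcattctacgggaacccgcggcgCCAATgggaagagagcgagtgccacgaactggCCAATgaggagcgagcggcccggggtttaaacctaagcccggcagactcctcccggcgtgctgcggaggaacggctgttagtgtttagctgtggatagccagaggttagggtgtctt
Mcm5, chr8:75109259-75109558, plus strand: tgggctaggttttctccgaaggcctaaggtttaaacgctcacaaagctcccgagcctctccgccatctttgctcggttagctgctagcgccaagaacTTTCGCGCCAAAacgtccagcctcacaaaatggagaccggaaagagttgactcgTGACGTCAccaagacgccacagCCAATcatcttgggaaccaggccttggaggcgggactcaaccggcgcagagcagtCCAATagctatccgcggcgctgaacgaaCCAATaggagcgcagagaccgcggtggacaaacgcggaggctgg
Cdk1, the kinase that drives mitosis, held 2 CHR, 3 CCAAT and 1 E2F match, and its RNA had 135, 149.6, 128 and 139 CPM at E11.5 and 16, 10.4, 11.4 and 10.05 CPM at E17.5. Ccnb1, the cyclin that activates it, held 2 CCAAT matches, and its RNA had 219.8, 237, 245 and 241 CPM at E11.5 and 10.7, 11.1, 12.5 and 13.2 CPM at E17.5. Mcm5 held 3 CCAAT, 2 E2F and 1 CRE match. Of the 36 members, 29 had a window. CCAAT was in 23 of them (79.3%), against 37.9% of 27025 promoters in the table. An E2F spelling was in 9 (31.03%), against 2.32%. The CHR letters were in 11 (37.9%), against 18.1%. TATAAA, the TATA box, was in 0 of these 29, a number that allows a share of up to 10.3% (3 of 29), and in 14.2% of all promoters. Among tested genes not called 2-fold it was in 6.55%, below that limit, so the 0 does not set the list apart from them. In the same genes CCAAT was in 38.3%, an E2F spelling in 3.96% and the CHR letters in 11.1%. A match is a string of letters and not a measured site.

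Genes of cell cycle exit, not all of them inhibitors of the cycle, did not move together. Of 9 members of the list of cell cycle exit genes, 4 rose, 3 fell and 2 did not pass the test, with a median log2 fold change of 0.49. Of all genes tested, 29.0% rose and 26.7% fell. Cdkn1a, which encodes p21, rose (3.07), as did Cdk5r1, the activator of the neuronal kinase Cdk5, from 136 ± 25.9 CPM at E11.5 to 449.7 ± 154 CPM at E17.5 (SD, n = 4 each) (log2 fold change 1.72 ± 0.25 (SE), edgeR adjusted p = 0.00019, and 1.44 without E17.5 replicate 1). Those that fell were the cyclin Ccnd3 (-1.99), Cdkn2c (-1.52) and Cdkn1c, which encodes p57 (-1.43, and -2.05 without E17.5 replicate 1, on the log2 scale). Cdkn1c had 242 CPM in E17.5 replicate 1 and 73.2 to 85.1 CPM in the other 3.

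Most markers of neural progenitors fell. Of 18 members, 4 rose, 13 fell and 1 did not pass the test, with a median log2 fold change of -2.06, and 4 rose and 13 fell without E17.5 replicate 1 (median -2.19). Nes, the intermediate filament nestin, had 1572, 1435, 1848 and 1645 CPM at E11.5 and 149.7, 114, 63.8 and 52.4 CPM at E17.5 (log2 fold change -4.10 ± 0.34 (SE), edgeR adjusted p = 4.6e-06, and -4.41 without E17.5 replicate 1). Hes5, a target of Notch signalling that holds cells undifferentiated, had 23.4, 45.7, 31.05 and 37.5 CPM at E11.5 and 5.63, 3.04, 3.63 and 3.79 CPM at E17.5 (log2 fold change -3.10 ± 0.28 (SE), edgeR adjusted p = 7e-06, and -3.31 without E17.5 replicate 1). Neither gene overlapped between stages. Sox2, which keeps progenitors in an uncommitted state, fell least among those called, from 241 ± 6.34 CPM at E11.5 to 154 ± 30.3 CPM at E17.5 (SD, n = 4 each) (log2 fold change -0.65 ± 0.17 (SE), edgeR adjusted p = 0.0088, and -0.81 without E17.5 replicate 1). The members that rose were Ntrk2 (2.72), Id4 (2.41), Slc1a3 (2.28) and Fabp7 (1.40), on the log2 scale.

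Proneural factors, which commit progenitors to become neurons, fell together with the Notch ligands they induce. Of 15 measured members, 1 rose, 13 fell and 1 did not pass the test, with a median log2 fold change of -2.89, and 1 rose and 13 fell without E17.5 replicate 1 (median -3.01). Neurog2 had 279, 250.2, 184 and 203 CPM at E11.5 and 18.1, 11.47, 13.1 and 10.7 CPM at E17.5 (log2 fold change -4.10 ± 0.24 (SE), edgeR adjusted p = 6.9e-07, and -4.30 without E17.5 replicate 1). The ligand Dll1 went from 156 ± 13.6 CPM at E11.5 to 21 ± 3.07 CPM at E17.5 (SD, n = 4 each) (log2 fold change -2.89 ± 0.18 (SE), edgeR adjusted p = 8.5e-07, and -3.01 without E17.5 replicate 1). Neither overlapped between stages. The largest fall was that of Olig3, which marks thalamic progenitors, at -6.31 on the log2 scale. Neurod2, a factor of maturing neurons, rose in contrast, from 0.97, 0.263, 0.728 and 0.654 CPM to 13.1, 4.4, 3.92 and 4.51 CPM (log2 fold change 3.29 ± 0.50 (SE), edgeR adjusted p = 0.00027, and 2.69 without E17.5 replicate 1).

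Secreted patterning signals and their readouts also fell. Of 24 measured members, 1 rose, 19 fell and 4 did not pass the test, with a median log2 fold change of -1.88, and 1 rose and 20 fell without E17.5 replicate 1 (median -1.995). The filter was passed only through E11.5 by 3 of them. Of the 20 that passed it at both stages, 1 rose and 16 fell, with a median of -1.535. Shh, the ventral signal that in the diencephalon also marks the boundary between thalamus and prethalamus, had 69.9, 92, 66.9 and 94.2 CPM at E11.5 and 8.35, 5.38, 5.98 and 4.9 CPM at E17.5 (log2 fold change -3.71 ± 0.24 (SE), edgeR adjusted p = 9.6e-07, and -3.91 without E17.5 replicate 1). Wnt3a, a dorsal midline ligand, had 4.34, 6.2, 3.8 and 4.87 CPM at E11.5 and 0.365, 0.109, 0 and 0 CPM at E17.5, or 395 counts against 9 in all (log2 fold change -5.34 ± 0.66 (SE), edgeR adjusted p = 6.7e-05, and -6.98 without E17.5 replicate 1). Fgf15, a growth factor of the early forebrain, went from 56.3 ± 6.73 CPM at E11.5 to 9.91 ± 3.2 CPM at E17.5 (SD, n = 4 each) (log2 fold change -2.51 ± 0.24 (SE), edgeR adjusted p = 1.2e-05, and -2.75 without E17.5 replicate 1). Spry4, an inhibitor of growth factor signalling, was the exception that rose (1.68).

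Genes of fetal developmental timing, which hold early progenitors in a juvenile state, fell by large factors. Of 12 members, 0 rose, 10 fell and 2 did not pass the test, with a median log2 fold change of -3.03, and 0 rose and 11 fell without E17.5 replicate 1 (median -3.09). Hmga2 (chr10:120197173-120313095, build GRCm39), a chromatin protein of young stem cells, had 204, 232, 222 and 232 CPM at E11.5 and 2.71, 3.64, 3.09 and 2.38 CPM at E17.5 (log2 fold change -6.23 ± 0.22 (SE), edgeR adjusted p = 2.3e-07, and -6.21 without E17.5 replicate 1). Lin28a, an RNA-binding protein that blocks let-7 maturation, had 26.6, 48.1, 50.7 and 60.1 CPM at E11.5 and 1.3, 0.761, 0.588 and 1.45 CPM at E17.5 (log2 fold change -5.48 ± 0.37 (SE), edgeR adjusted p = 1.3e-06, and -5.61 without E17.5 replicate 1). Both genes were separated between stages by more than 10-fold in every sample. Its paralogue Lin28b had 45.2, 35.6, 89.2 and 69.2 CPM at E11.5 and 7.51, 38.6, 43.6 and 44.4 CPM at E17.5 and did not pass the test (log2 fold change -0.84 ± 0.48 (SE), edgeR adjusted p = 0.16, and -0.51 without E17.5 replicate 1). Sall4, an early embryonic zinc finger factor outside the list, was among the 6 largest falls of protein-coding genes at 20 CPM or more, from 19.7, 38.3, 28.9 and 40.6 CPM to 0.209, 0, 0.294 and 0.511 CPM (log2 fold change -6.88 ± 0.53 (SE), edgeR adjusted p = 2.8e-06, and -6.78 without E17.5 replicate 1).

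**Figure D2:**
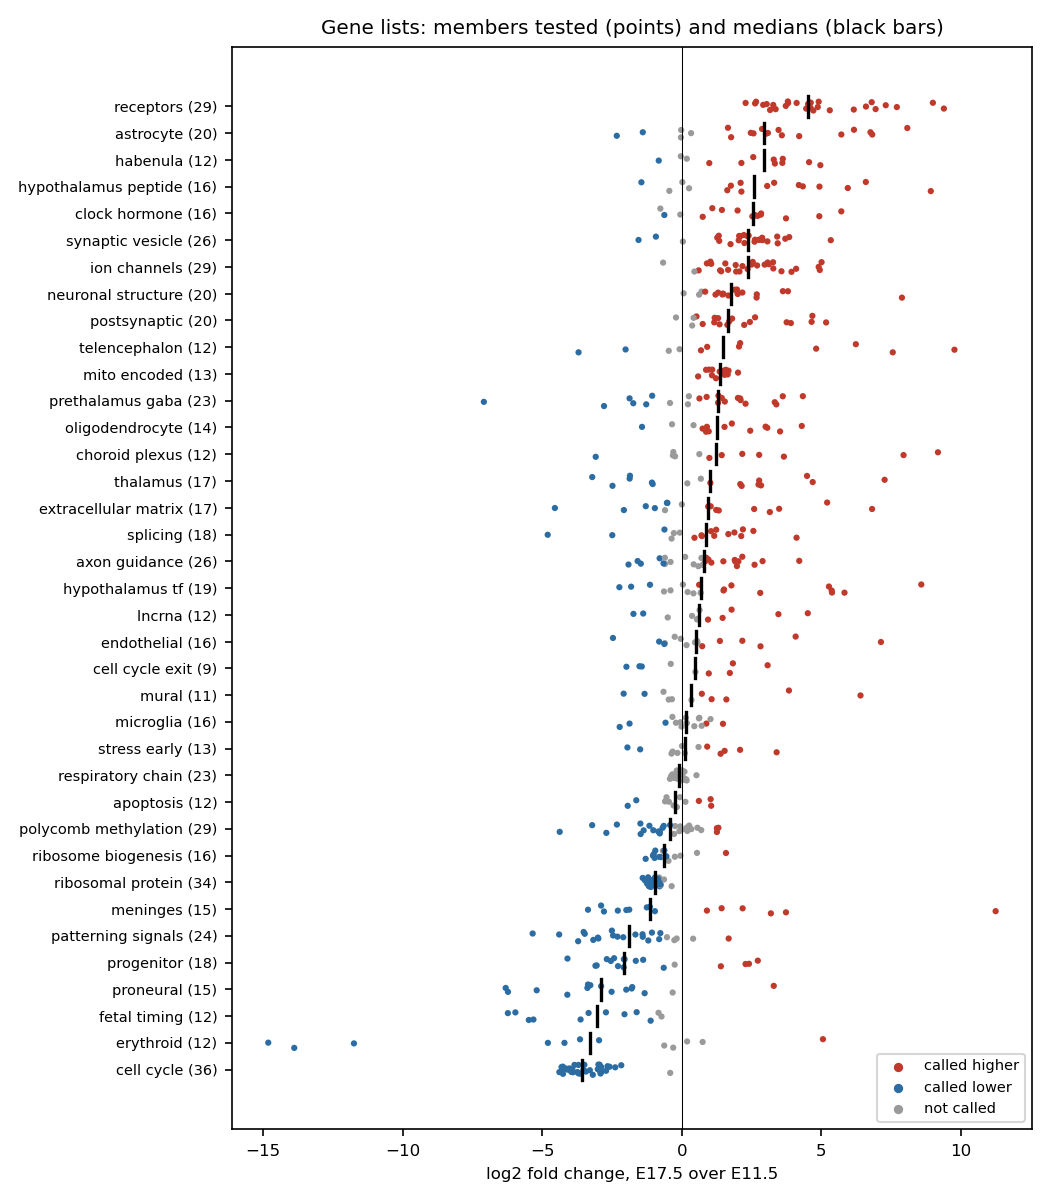
Log2 fold change at E17.5 over E11.5 (x axis) of the tested members of 37 gene lists (rows, with the number tested in brackets), ordered by the list's median (black bar). Red and blue points passed the test and grey points did not: the medians ran from -3.58 for cell cycle genes to 4.52 for receptors.

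Genes of neuronal structure rose in most cases. Of 20 members, 17 rose, 0 fell and 3 did not pass the test, with a median log2 fold change of 1.78, and 17 rose and 0 fell without E17.5 replicate 1 (median 1.68). Their summed level ran from 5195 to 7415 CPM at E11.5 and from 18110 to 21380 CPM at E17.5. Nefl, the light neurofilament chain, had 112, 92.3, 156 and 137 CPM at E11.5 and 421, 329.5, 285 and 330.0 CPM at E17.5 (log2 fold change 1.46 ± 0.21 (SE), edgeR adjusted p = 0.00018, and 1.33 without E17.5 replicate 1). Rbfox3, the nuclear protein NeuN of differentiated neurons, had 30.6, 24.9, 23.8 and 25.2 CPM at E11.5 and 147, 65.2, 59.2 and 60.6 CPM at E17.5 (log2 fold change 1.67 ± 0.30 (SE), edgeR adjusted p = 0.00091, and 1.23 without E17.5 replicate 1). Both were higher in every E17.5 sample. Mapt, which encodes tau, rose by 3.62 and Thy1, a surface protein of mature projection neurons, by 7.89 on the log2 scale. Tubb3, the tubulin of newborn neurons, did not pass the test, and its value rested on E17.5 replicate 1. It had 903, 851, 665 and 709.6 CPM at E11.5 and 2627, 841, 862 and 773 CPM at E17.5 (log2 fold change 0.71 ± 0.38 (SE), edgeR adjusted p = 0.13, and 0.064 without E17.5 replicate 1). The stages overlapped with and without that library. Tubulins are near-identical in sequence, so reads that map to several of them were not counted.

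Synaptic genes rose as a group. Of 26 genes of the vesicle and its release, 23 rose, 2 fell and 1 did not pass the test, with a median log2 fold change of 2.37, and 23 rose and 2 fell without E17.5 replicate 1 (median 2.16). Snap25, a member of the complex that fuses vesicles, had 26.4, 11.9, 33 and 23.4 CPM at E11.5 and 85.4, 188, 236 and 284 CPM at E17.5 (log2 fold change 3.07 ± 0.41 (SE), edgeR adjusted p = 0.00011, and 3.31 without E17.5 replicate 1). Syt1, the calcium sensor of release, went from 53.4 ± 14.4 CPM at E11.5 to 569.7 ± 81.1 CPM at E17.5 (SD, n = 4 each) (log2 fold change 3.42 ± 0.24 (SE), edgeR adjusted p = 1.7e-06, and 3.48 without E17.5 replicate 1). Slc17a6, which loads vesicles with glutamate and marks thalamic relay neurons, had 56.8, 26.7, 66 and 40.1 CPM at E11.5 and 90.1, 289, 226 and 279 CPM at E17.5 (log2 fold change 2.22 ± 0.39 (SE), edgeR adjusted p = 0.00069, and 2.48 without E17.5 replicate 1). Slc32a1, which loads them with GABA, had 7.4, 6.78, 5.36 and 6.7 CPM at E11.5 and 44.5, 22.3, 20.3 and 21.9 CPM at E17.5 (log2 fold change 2.05 ± 0.28 (SE), edgeR adjusted p = 0.00013, and 1.70 without E17.5 replicate 1). No gene of these 4 overlapped between stages. The members that fell were Syt2 (-1.55) and Slc17a8 (-0.93). Slc17a8 had a humanized log2 fold change of 0.04.

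Of 20 postsynaptic scaffolds and kinases, 17 rose, 0 fell and 3 did not pass the test, with a median log2 fold change of 1.66, and 17 rose and 0 fell without E17.5 replicate 1 (median 1.46). Dlg4, the scaffold PSD-95, had 191, 167, 154 and 168 CPM at E11.5 and 817, 349.6, 282 and 287 CPM at E17.5. All E17.5 samples were higher, replicate 1 by far (log2 fold change 1.35 ± 0.33 (SE), edgeR adjusted p = 0.0055, and 0.84 without E17.5 replicate 1). Camk2a, a kinase of synaptic plasticity, had 23.1, 17.498, 18.2 and 18 CPM at E11.5 and 124, 88.3, 70.8 and 78.5 CPM at E17.5 (log2 fold change 2.24 ± 0.22 (SE), edgeR adjusted p = 1.3e-05, and 2.03 without E17.5 replicate 1). Camk2b, its partner subunit, rose by 5.17 on the log2 scale, the largest rise of the list.

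Receptors for glutamate, GABA and glycine rose without exception among the 29 of 31 subunits that passed the filter, 23 of which passed it at both stages and rose too. A subunit that passed only through E17.5 had to differ, so the count is a description. Over all genes tested 29.0% rose. The median log2 fold change of the 29 was 4.52, and 4.67 without E17.5 replicate 1. Their summed level ran from 154 to 264 CPM at E11.5 and from 1896 to 4354 CPM at E17.5, and replicate 1 was the lowest of its stage. Gria2, the subunit that makes AMPA receptors impermeable to calcium, had 18.7, 7.41, 20.3 and 12.8 CPM at E11.5 and 142, 517, 479 and 596 CPM at E17.5 (log2 fold change 4.87 ± 0.50 (SE), edgeR adjusted p = 1.7e-05, and 5.16 without E17.5 replicate 1). Grin2b, the NMDA receptor subunit of the fetal brain (chr6:135690231-136150548), had 7.91, 3.94, 9.93 and 6.09 CPM at E11.5 and 246, 744, 481 and 524 CPM at E17.5 (log2 fold change 6.16 ± 0.43 (SE), edgeR adjusted p = 1.5e-06, and 6.38 without E17.5 replicate 1). Grm5, a metabotropic glutamate receptor and 1 of the 6 largest rises among protein-coding genes called 2-fold with at least 20 CPM in the higher stage, had 0.562, 0.0525, 0.728 and 0.0818 CPM at E11.5 and 109, 331, 211 and 293 CPM at E17.5 (log2 fold change 9.39 ± 0.68 (SE), edgeR adjusted p = 1.9e-06, and 9.63 without E17.5 replicate 1). In none of these did the stages overlap. Gabra5 rose by 5.30 and Glra2, the fetal glycine receptor subunit, by 6.80 on the log2 scale. Glra1, its adult counterpart, did not pass the filter, with 10 counts at E11.5 and 67 at E17.5 over 4 samples each.

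Of 29 voltage-gated channel genes, 27 rose, 0 fell and 2 did not pass the test, with a median log2 fold change of 2.36, and 27 rose and 0 fell without E17.5 replicate 1 (median 2.45). Scn2a, a sodium channel of immature axons, had 8.63, 4.89, 12.2 and 5.4 CPM at E11.5 and 99.9, 315, 258 and 327 CPM at E17.5 (log2 fold change 5.01 ± 0.46 (SE), edgeR adjusted p = 7.8e-06, and 5.27 without E17.5 replicate 1). Scn3a, the main fetal sodium channel, went from 47.8 ± 17.8 CPM at E11.5 to 278 ± 123 CPM at E17.5 (SD, n = 4 each) (log2 fold change 2.54 ± 0.41 (SE), edgeR adjusted p = 0.00042, and 2.81 without E17.5 replicate 1). Scn8a, the channel of mature nodes, rose less (1.03), with 48.5, 33.3, 58.5 and 45.5 CPM at E11.5 and 51.9, 125, 97.5 and 103 CPM at E17.5. Its E17.5 replicate 1 lay within the E11.5 range.

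**Figure D3:**
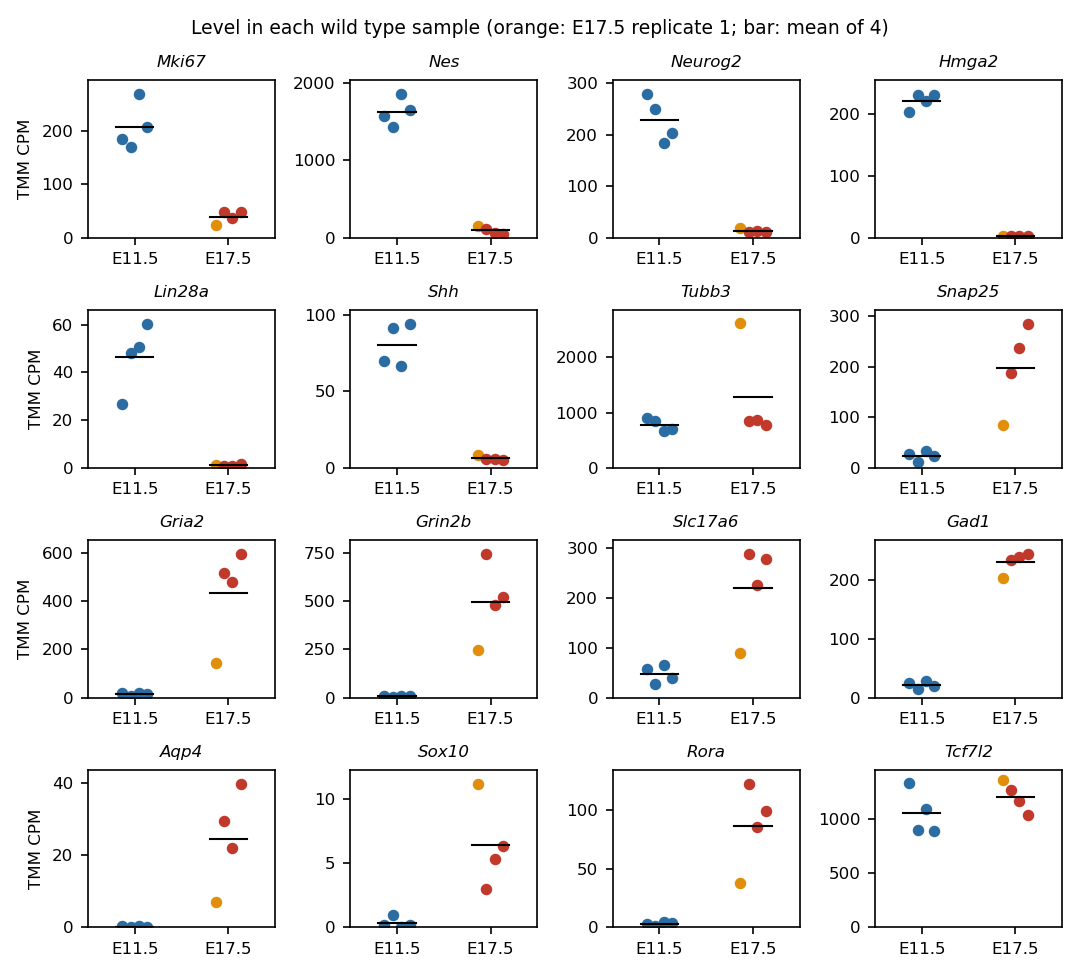
TMM-scaled CPM (y axes, linear, from 0) of 16 genes in each of the 4 wild type samples at E11.5 (blue) and E17.5 (red, with replicate 1 in orange). Black bars are means of 4: Mki67 to Shh were lower in every E17.5 sample, Snap25 to Rora were higher in every one, and Tubb3 and Tcf7l2 overlapped between stages.

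Pairs of related genes were compared as log2 ratios within each sample, which removes the scaling of libraries. Gene length cancels in the difference between stages, while the ratio within a stage is not corrected for it. Of 20 pairs tested, 18 are given here. They were tested with an exact permutation test, two-sided, whose smallest p for 4 against 4 samples is 0.0286. With a library left out there are fewer arrangements, so p moves in coarser steps. A fully separated pair can then lose its call through these steps alone. After adjustment over the 20 pairs, 12 of the 18 ratios were higher and 4 lower at E17.5, all 16 at an adjusted p of 0.0318 (exact permutation test). Hbb-bs/Hbb-y had a log2 ratio of -6.92 ± 0.63 at E11.5 and 12.19 ± 0.99 at E17.5 (SD, n = 4), and Hba-a1/Hba-x had a log2 ratio of -3.13 ± 0.24 at E11.5 and 8.78 ± 1.09 at E17.5 (SD, n = 4). These pairs set an adult globin over an embryonic one. Slc12a5/Slc12a2 had a log2 ratio of -2.53 ± 0.67 at E11.5 and 1.58 ± 1.11 at E17.5 (SD, n = 4), the chloride exporter Kcc2 over the importer Nkcc1, whose balance sets the sign of the GABA response. Slc12a5 had 13.4, 12.8, 10.9 and 11.3 CPM at E11.5 and 286, 195, 201 and 226 CPM at E17.5, while Slc12a2 had 68.5, 42.2, 107 and 76 CPM at E11.5 and 30.5, 106, 92.6 and 106 CPM at E17.5 and did not pass the test on its own (log2 fold change 0.19 ± 0.39 (SE), edgeR adjusted p = 0.70, and 0.46 without E17.5 replicate 1).

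Subunits of the BAF chromatin remodelling complex that neurons exchange on leaving the cycle shifted in each of 3 pairs. Actl6b/Actl6a had a log2 ratio of -2.28 ± 0.28 at E11.5 and 2.47 ± 0.39 at E17.5 (SD, n = 4). Ss18l1/Ss18 had a log2 ratio of -0.61 ± 0.18 at E11.5 and 2.30 ± 0.50 at E17.5 (SD, n = 4). Dpf1/Phf10 had a log2 ratio of -0.87 ± 0.30 at E11.5 and 0.37 ± 0.83 at E17.5 (SD, n = 4). The difference of this pair was 1.24 with all samples and 0.83 without E17.5 replicate 1. Its call was lost without that library or without E11.5 replicate 2, 3 or 4 (adjusted p of 0.0602 to 0.0635, exact permutation test). The stages stayed fully separated in each of these fits. Actl6a and Actl6b themselves changed by -2.80 and 2.00 on the log2 scale.

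Pairs of enzymes moved toward the neuronal form. Eno2/Eno1 had a log2 ratio of -6.38 ± 0.37 at E11.5 and -1.91 ± 0.17 at E17.5 (SD, n = 4) and Hk1/Hk2 had a log2 ratio of 0.28 ± 0.21 at E11.5 and 5.89 ± 0.72 at E17.5 (SD, n = 4). These are enolases and hexokinases of glycolysis. Eno1 did not pass the test on its own with all samples (-0.66) and fell without E17.5 replicate 1 (-1.09, edgeR adjusted p = 8.9e-05), while Eno2 rose (3.80). Hexokinases moved on both sides, Hk1 by 2.01 and Hk2 by -3.73. Tubb4a/Tubb5 had a log2 ratio of -4.22 ± 0.17 at E11.5 and -3.16 ± 0.06 at E17.5 (SD, n = 4), for beta-tubulins of mature and of young neurons.

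Ratios of chromatin and RNA regulators shifted too. Ezh1/Ezh2 had a log2 ratio of -3.50 ± 0.30 at E11.5 and 0.088 ± 0.62 at E17.5 (SD, n = 4), the Polycomb methyltransferases of resting and of dividing cells. Dnmt3a/Dnmt3b had a log2 ratio of 3.24 ± 0.16 at E11.5 and 6.27 ± 0.22 at E17.5 (SD, n = 4), for the DNA methyltransferases. Dnmt3b fell (-2.70). Dnmt3a did not pass the test with all samples (0.34) and rose without E17.5 replicate 1 (0.29, edgeR adjusted p = 0.0498). Igf2bp2/Igf2bp1 had a log2 ratio of -1.40 ± 0.16 at E11.5 and 0.59 ± 0.30 at E17.5 (SD, n = 4). Both Igf2bp genes fell, Igf2bp1 (-5.32) more than Igf2bp2 (-3.34). Lin28a/Lin28b had a log2 ratio of -0.34 ± 0.59 at E11.5 and -4.80 ± 1.61 at E17.5 (SD, n = 4). The call on Lin28a/Lin28b was lost when any 1 of the 4 E11.5 replicates was left out (differences of -4.62 to -4.20, adjusted p of 0.0602 to 0.0635, exact permutation test). Its stages stayed fully separated in each case. Ptbp2/Ptbp1 had a log2 ratio of 0.71 ± 0.56 at E11.5 and 2.91 ± 1.30 at E17.5 (SD, n = 4), the neuronal splicing regulator over its non-neuronal paralogue. This ratio did not pass with all samples (adjusted p = 0.0602, exact permutation test) and passed without E17.5 replicate 1, at a difference of 2.85 (adjusted p = 0.0357). Ptbp1 fell (-2.49), while Ptbp2 did not pass the test on its own (-0.28).

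Ratios of receptor and channel subunits moved away from the adult form. Grin2a/Grin2b had a log2 ratio of -1.81 ± 0.50 at E11.5 and -4.96 ± 0.30 at E17.5 (SD, n = 4), as both rose but Grin2b (6.16) more than Grin2a (3.04). Glra1/Glra2 had a log2 ratio of -3.45 ± 1.605 at E11.5 and -7.23 ± 1.04 at E17.5 (SD, n = 4), with Glra1 at 0 to 6 counts in the E11.5 samples, and the call was lost when any 1 of the 4 E17.5 replicates was left out (differences of -4.10 to -3.45, each at adjusted p = 0.0602, exact permutation test). The ratios of this pair still separated the stages in those fits. Scn8a/Scn3a had a log2 ratio of 0.0097 ± 0.26 at E11.5 and -1.47 ± 0.35 at E17.5 (SD, n = 4). Kif5a/Kif5b had a log2 ratio of 1.21 ± 0.45 at E11.5 and 1.52 ± 0.81 at E17.5 (SD, n = 4), 2 kinesins of axonal transport, and did not differ beyond the spread (difference 0.31, and -0.092 without E17.5 replicate 1).

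**Figure D4:**
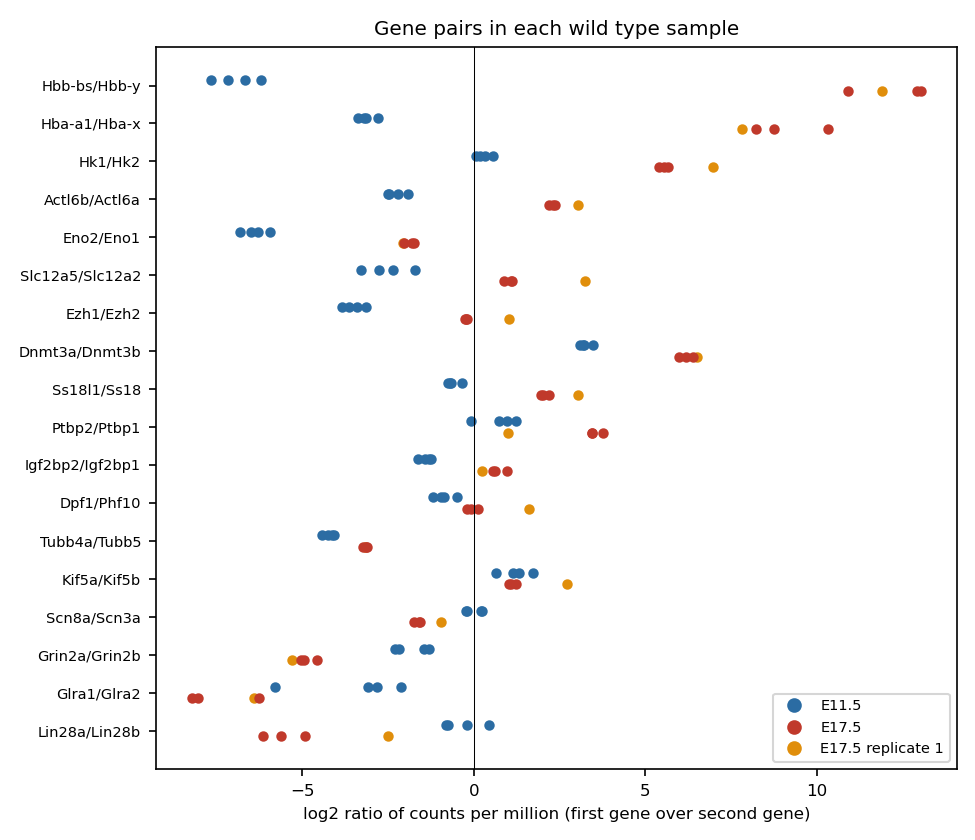
Log2 ratio of CPM of 18 gene pairs (x axis) in each wild type sample at E11.5 (blue) and E17.5 (red, replicate 1 in orange), ordered by the difference between stages. The points of the stages separate fully in 16 pairs and overlap for Ptbp2/Ptbp1 and Kif5a/Kif5b.

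Astrocyte genes rose in most cases. Of 20 members, 15 rose, 2 fell and 3 did not pass the test, with a median log2 fold change of 2.94, and 16 rose and 3 fell without E17.5 replicate 1 (median 2.62). The filter was passed only through E17.5 by 5 of them. Of the 15 that passed it at both stages, 10 rose and 2 fell, with a median of 2.47. Aqp4, the water channel of astrocyte endfeet, had 0.357, 0, 0.416 and 0.123 CPM at E11.5 and 7.04, 29.4, 22 and 39.6 CPM at E17.5 (log2 fold change 6.76 ± 0.72 (SE), edgeR adjusted p = 2.2e-05, and 7.06 without E17.5 replicate 1). Nfia, a factor that opens gliogenesis, had 29.9, 17.9, 26.4 and 21.3 CPM at E11.5 and 56, 88.2, 76 and 80.0 CPM at E17.5 (log2 fold change 1.65 ± 0.22 (SE), edgeR adjusted p = 0.00011, and 1.76 without E17.5 replicate 1). Hepacam, an astrocyte adhesion protein and 1 of the same 6 largest rises, had 0.153, 0.21, 0.104 and 0.0818 CPM at E11.5 and 54.2, 31.5, 30.98 and 35.2 CPM at E17.5 (log2 fold change 8.08 ± 0.36 (SE), edgeR adjusted p = 2.9e-07, and 7.85 without E17.5 replicate 1). Stages did not overlap for these 3. Slc1a2, the main glutamate transporter of astrocytes, went from 244 ± 68.5 CPM at E11.5 to 307 ± 111 CPM at E17.5 (SD, n = 4 each). It did not pass the test with all samples (log2 fold change 0.33 ± 0.31 (SE), edgeR adjusted p = 0.39) and rose without E17.5 replicate 1 (0.56, edgeR adjusted p = 0.018). Those that fell were Fgfr3 (-2.33) and Sox9 (-1.40), which radial glia also express.

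Genes of the oligodendrocyte lineage ran from 164 to 215 CPM at E11.5 and from 324 to 399 CPM at E17.5. Of 14 of 16 members tested, 11 rose, 1 fell and 2 did not pass the test, with a median log2 fold change of 1.25, and 12 rose and 2 fell without E17.5 replicate 1 (median 1.15). Sox10, the factor that defines the lineage, had 0.153, 0.998, 0 and 0.164 CPM at E11.5 and 11.1, 2.99, 5.29 and 6.3 CPM at E17.5, or 26 counts against 524 in all (log2 fold change 4.30 ± 0.75 (SE), edgeR adjusted p = 0.00066, and 3.90 without E17.5 replicate 1). Pdgfra, the receptor of precursors, which meningeal fibroblasts share, had 46, 48, 50.1 and 54.9 CPM at E11.5 and 77.3, 103, 86.3 and 104 CPM at E17.5 (log2 fold change 0.90 ± 0.17 (SE), edgeR adjusted p = 0.0011, and 0.97 without E17.5 replicate 1). Myrf, the factor of myelination, fell (-1.43).

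Genes that mark the thalamus went both ways. Of 17 members, 9 rose, 6 fell and 2 did not pass the test, with a median log2 fold change of 1.02, and 9 rose and 6 fell without E17.5 replicate 1 (median 1.23). Tcf7l2, the factor that defines thalamic and habenular neurons, was high at both stages, with 1324, 899, 1086 and 884 CPM at E11.5 and 1357, 1258, 1166 and 1028 CPM at E17.5, and did not pass the test (log2 fold change 0.20 ± 0.18 (SE), edgeR adjusted p = 0.39, and 0.12 without E17.5 replicate 1). Gbx2, an early thalamic factor, had 41.3, 17.8, 13.2 and 9.44 CPM at E11.5 and 52.1, 25.9, 27 and 26 CPM at E17.5 and likewise did not pass (log2 fold change 0.68 ± 0.43 (SE), edgeR adjusted p = 0.20, and 0.35 without E17.5 replicate 1). Rora, a factor of maturing relay neurons, had 3.32, 1.52, 4.89 and 3.6 CPM at E11.5 and 37.7, 122, 85.7 and 99.3 CPM at E17.5 (log2 fold change 4.69 ± 0.44 (SE), edgeR adjusted p = 1e-05, and 4.93 without E17.5 replicate 1), and Calb2 and Ntng1 rose by 7.26 and 4.48 on the log2 scale. Iroquois factors of the early caudal diencephalon fell: Irx3 (-3.21), Irx5 (-2.48), Irx2 (-1.87) and Irx1 (-1.86). Irx2 went from 98.6 ± 11.2 CPM at E11.5 to 27 ± 5.19 CPM at E17.5 (SD, n = 4 each).

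In the habenula, of 12 of 14 members tested, 9 rose, 1 fell and 2 did not pass the test, with a median log2 fold change of 2.93. The filter was passed only through E17.5 by 3 of them. Of the 9 that passed it at both stages, 6 rose and 1 fell, with a median of 2.13. Gpr151, a receptor of habenular axons, had 0.255, 0.21, 0.26 and 0.0818 CPM at E11.5 and 8.04, 4.24, 5.79 and 7.19 CPM at E17.5 (log2 fold change 4.96 ± 0.38 (SE), edgeR adjusted p = 2.5e-06, and 4.83 without E17.5 replicate 1), whereas Pou4f1, the early habenular factor, fell (-0.83), from 48.1 ± 13.4 CPM at E11.5 to 27.1 ± 3.01 CPM at E17.5 (SD, n = 4 each). Among prethalamic and GABAergic genes, 23 tested, 14 rose, 6 fell and 3 did not pass the test, with a median log2 fold change of 1.30. Gad1, which makes GABA, had 24.5, 15.2, 28.2 and 20.4 CPM at E11.5 and 203, 235, 239 and 245 CPM at E17.5 (log2 fold change 3.39 ± 0.22 (SE), edgeR adjusted p = 1.1e-06, and 3.43 without E17.5 replicate 1). Dlx1, a factor of prethalamic neurons, had 23.5, 35.6, 21.5 and 31.3 CPM at E11.5 and 97.6, 81.9, 77.1 and 68.8 CPM at E17.5 (log2 fold change 1.54 ± 0.21 (SE), edgeR adjusted p = 0.00014, and 1.43 without E17.5 replicate 1). The GABAergic selectors of the caudal diencephalon went the other way. Tal2 had 157, 103, 188 and 130.1 CPM at E11.5 and 0.678, 1.63, 0.981 and 0.936 CPM at E17.5 (log2 fold change -7.09 ± 0.34 (SE), edgeR adjusted p = 3.1e-07, and -6.95 without E17.5 replicate 1), a fall among the same 6 largest, and Gata2 (-2.79) and Tal1 (-1.87) fell with it.

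Of 19 of 20 hypothalamic transcription factors tested, 10 rose, 3 fell and 6 did not pass the test, with a median log2 fold change of 0.67, and 11 rose and 4 fell without E17.5 replicate 1 (median 0.93). The filter was passed only through E17.5 by 5 of them. Of the 13 that passed it at both stages, 5 rose and 3 fell, with a median of 0.42. Nkx2-1, the factor of the ventral hypothalamus, had 39.3, 49.9, 14.2 and 26.2 CPM at E11.5 and 65.5, 33.8, 40.2 and 33.4 CPM at E17.5, which overlapped (log2 fold change 0.42 ± 0.37 (SE), edgeR adjusted p = 0.35, and 0.13 without E17.5 replicate 1). Rax, a factor of the early hypothalamus and retina, did not pass the filter, with 9 counts at E11.5 and 42 at E17.5. Six6 rose by 8.58 and Nr5a1, the factor of the ventromedial nucleus, by 5.27 on the log2 scale, while Pou3f2 (-2.24) and Lmx1b (-1.82) fell. Of 16 of 21 neuropeptides tested, 12 rose, 1 fell and 3 did not pass the test, with a median log2 fold change of 2.60. The filter was passed only through E17.5 by 4 of them. Of the 7 that passed it at both stages, 5 rose and 1 fell, with a median of 1.76. Pmch, the melanin-concentrating hormone, had 0.153, 0.21, 0.468 and 0.45 CPM at E11.5 and 1.25, 2.72, 3.63 and 5.41 CPM at E17.5 (log2 fold change 3.31 ± 0.52 (SE), edgeR adjusted p = 0.00032, and 3.56 without E17.5 replicate 1). Pomc, the precursor of melanocortins, rose from 0.95 ± 0.134 CPM at E11.5 to 2.95 ± 1.2 CPM at E17.5 (SD, n = 4 each) (log2 fold change 1.63 ± 0.33 (SE), edgeR adjusted p = 0.0019, and 1.58 without E17.5 replicate 1). Avp, vasopressin, had 0 counts at E11.5 and 242 at E17.5, at least 74.96-fold higher against a floor of 3 counts over the E11.5 group. Its fitted fold change is no bound, and the list's median is the same with Avp at this floor. Cartpt fell (-1.45).

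Markers of neighbouring regions were measured as a check on the dissection. Of 12 telencephalic genes tested, 8 rose, 2 fell and 2 did not pass the test, with a median log2 fold change of 1.48, and their summed level ran from 479 to 566 CPM at E11.5 and from 738 to 877 CPM at E17.5. Of the 7 that passed the filter at both stages, 4 rose and 1 fell, with a median of 0.69. Tbr1 and Neurod6 rose by 6.23 and 7.56 on the log2 scale, while Emx1 (-3.70, and -5.78 without E17.5 replicate 1) and Emx2 (-2.02) fell. Of 18 midbrain and hindbrain genes 7 passed the filter, of which 1 rose, 2 fell and 4 did not pass the test, with a median log2 fold change of 0.40, and the sum of the list ran from 64.3 to 86.5 CPM at E11.5 and from 25.7 to 41.1 CPM at E17.5. Of all genes tested, 29.0% rose and 26.7% fell. En1 had 1.23, 1.21, 2.34 and 4.13 CPM at E11.5 and 4.43, 1.79, 2.55 and 5.28 CPM at E17.5 and did not pass the test, and Slc6a3, the dopamine transporter, rose (6.47). Of 15 eye and pituitary genes 3 passed the filter, of which 2 rose, 0 fell and 1 did not pass the test, with a median log2 fold change of 1.58. What part RNA from neighbouring tissue plays in the values above was not tested.

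Vascular genes had summed levels of similar size at both stages. Endothelial genes ran from 493 to 617 CPM at E11.5 and from 463 to 635 CPM at E17.5. E17.5 replicate 1 held the 635 CPM, and the other 3 ran from 463 to 492 CPM, below every E11.5 sample. Of 16 members, 6 rose, 3 fell and 7 did not pass the test, with a median log2 fold change of 0.51, and 7 rose and 5 fell without E17.5 replicate 1 (median 0.16). Over all genes tested 29.0% rose and 26.7% fell, and 36.0% and 36.3% did so without that library. Slco1c1, the thyroid hormone transporter of the blood-brain barrier, had 2.4, 2.36, 2.34 and 1.8 CPM at E11.5 and 40.6, 35.8, 30.8 and 43.1 CPM at E17.5 (log2 fold change 4.08 ± 0.21 (SE), edgeR adjusted p = 3.8e-07, and 4.03 without E17.5 replicate 1), and Cldn5, a tight junction protein of the barrier, had 9.45, 12.8, 10.2 and 10.2 CPM at E11.5 and 50.1, 18.8, 22.6 and 18.4 CPM at E17.5 (log2 fold change 1.36 ± 0.33 (SE), edgeR adjusted p = 0.0047, and 0.89 without E17.5 replicate 1). Plvap, the protein of leaky vessels, fell, with 8.73, 12.2, 8.84 and 13.1 CPM at E11.5 and 2.56, 1.36, 2.3 and 1.53 CPM at E17.5 (log2 fold change -2.47 ± 0.27 (SE), edgeR adjusted p = 2.8e-05, and -2.64 without E17.5 replicate 1). Each of the 3 separated the stages. Slc2a1 (-0.81) and Emcn (-0.63) fell too, and Slc2a1, the glucose transporter of the barrier, had 120 CPM in E17.5 replicate 1 and 47.6 to 57.3 CPM in the other 3.

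Mural cell genes ran from 316 to 408 CPM at E11.5 and from 315 to 341 CPM at E17.5. Of 11 members, 5 rose, 2 fell and 4 did not pass the test, with a median log2 fold change of 0.35. The median was -0.14 without E17.5 replicate 1. For this list and the microglial one below, the shares over all genes tested were 29.0% higher and 26.7% lower. Rgs5, a pericyte marker, had 12, 5.52, 13.3 and 7.85 CPM at E11.5 and 63.3, 169, 149 and 172 CPM at E17.5 (log2 fold change 3.84 ± 0.39 (SE), edgeR adjusted p = 1.7e-05, and 4.07 without E17.5 replicate 1), and Notch3 (-2.08) and Acta2 (-1.33) fell. Microglial genes ran from 165 to 192 CPM at E11.5 and from 123 to 163 CPM at E17.5. Of 16 members, 2 rose, 3 fell and 11 did not pass the test, with a median log2 fold change of 0.16, and the median was -0.066 without E17.5 replicate 1. C1qa, a complement subunit of microglia, had 3.52, 4.83, 2.5 and 3.35 CPM at E11.5 and 11.3, 2.88, 3.73 and 3.87 CPM at E17.5 and did not pass the test (log2 fold change 0.61 ± 0.42 (SE), edgeR adjusted p = 0.24, and -0.032 without E17.5 replicate 1). P2ry12, a receptor of mature microglia, rose (1.47), with 0.919, 0.736, 2.7 and 1.06 CPM at E11.5 and 2.09, 4.62, 3.43 and 4.9 CPM at E17.5. Tmem119 (-2.23) and Sall1 (-1.87) fell, of which Sall1 is also expressed by neural progenitors.

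The summed level of red cell genes fell, and the globins switched in kind. Of 12 members, 1 rose, 7 fell and 4 did not pass the test, with a median log2 fold change of -3.31, and their sum ran from 1826 to 3982 CPM at E11.5 and from 237 to 914 CPM at E17.5. The count is a description, because 5 members passed the filter only through E11.5 and had to differ. Of the 5 that passed it at both stages, 1 rose and 0 fell, with a median of 0.19. The embryonic beta-like globin Hbb-y (chr7:103500956-103502423, GRCm39) had 1326, 1663, 803 and 1054 CPM at E11.5 and 0.157, 0, 0.147 and 0 CPM at E17.5. It stood at 98841 counts against 6. Hbb-bh1, another embryonic beta-like globin, had 43607 counts at E11.5 and 1 at E17.5, in replicate 1, a ratio of 46930 (exact 95% counting interval 8422 to 1854000). Hba-x, the embryonic alpha-like globin, had 646, 938, 451 and 612 CPM at E11.5 and 0.574, 0.0544, 0.147 and 0 CPM at E17.5. These 3 were the largest falls of the genes named by rule, followed by Hemgn, a red cell nuclear protein (-7.82, and -8.60 without E17.5 replicate 1). The adult Hbb-bs rose, with 18, 11.6, 7.96 and 5.19 CPM at E11.5 and 701, 209.7, 331 and 177 CPM at E17.5 (log2 fold change 5.06 ± 0.56 (SE), edgeR adjusted p = 2.8e-05, and 4.48 without E17.5 replicate 1). The adult Hba-a1 had 93, 105, 43.9 and 66.6 CPM at E11.5 and 136, 34.9, 51.1 and 27.1 CPM at E17.5. It did not pass the test with all samples (log2 fold change -0.31 ± 0.48 (SE), edgeR adjusted p = 0.60) and fell without E17.5 replicate 1 (-1.05, edgeR adjusted p = 0.0060). E17.5 replicate 1 had the highest level of both adult genes. Adult globin genes have near-identical copies, Hbb-bt and Hba-a2, between which reads may not be assigned.

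The promoters of the beta-globin genes that exchanged places are shown, from RefSeq on build GRCm38.p6, with CCAAT matches on either strand in capitals.
Hbb-y, chr7:103853158-103853457, minus strand: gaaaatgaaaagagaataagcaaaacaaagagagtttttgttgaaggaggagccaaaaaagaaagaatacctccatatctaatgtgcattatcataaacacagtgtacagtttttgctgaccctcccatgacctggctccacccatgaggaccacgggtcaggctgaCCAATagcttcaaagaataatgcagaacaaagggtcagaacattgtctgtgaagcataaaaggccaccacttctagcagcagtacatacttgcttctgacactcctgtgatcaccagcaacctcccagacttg
Hbb-bs, chr7:103827879-103828178, minus strand: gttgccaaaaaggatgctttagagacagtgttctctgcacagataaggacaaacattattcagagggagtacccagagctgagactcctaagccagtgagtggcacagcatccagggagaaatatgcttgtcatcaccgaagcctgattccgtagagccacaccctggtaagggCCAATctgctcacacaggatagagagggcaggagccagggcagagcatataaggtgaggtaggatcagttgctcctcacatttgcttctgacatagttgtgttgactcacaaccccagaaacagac
Each window held 1 CCAAT match. Their ratios of observed to expected CpG were 0.0714 and 0.109, against a median of 0.389 over 27025 promoters. An H3K27ac peak lay within 1 kb of the Hbb-y start in both E11.5 replicates, whereas the 3 E17.5 replicates did not all have one there.

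Choroid plexus genes ran from 329 to 384 CPM at E11.5 and from 273 to 442 CPM at E17.5. Of 12 members, 7 rose, 1 fell and 4 did not pass the test, with a median log2 fold change of 1.21. The filter was passed only through E17.5 by 3 of them. Of the 8 that passed it at both stages, 3 rose and 1 fell, with a median of 0.19. Ttr, the thyroid hormone carrier that choroid plexus secretes, had 0.97, 0.368, 0.156 and 0.0818 CPM at E11.5 and 206, 261, 137 and 298 CPM at E17.5, 31 counts against 18523 (log2 fold change 9.18 ± 0.61 (SE), edgeR adjusted p = 1.2e-06, and 9.21 without E17.5 replicate 1). Otx2, which early diencephalic progenitors also express, fell (-3.09). It had 273, 282, 342 and 310 CPM at E11.5 and 40.9, 34.6, 33.9 and 32.9 CPM at E17.5. Most of the summed level of the list at E11.5 was thus that of Otx2, and little of it at E17.5. Meningeal and fibroblast genes ran from 1744 to 2340 CPM at E11.5 and from 771 to 1055 CPM at E17.5. Of 15 members, 6 rose, 9 fell and 0 did not pass the test, with a median log2 fold change of -1.15. Col1a1, the collagen of fibroblasts, fell from 361 ± 63.1 CPM at E11.5 to 91.1 ± 33.1 CPM at E17.5 (SD, n = 4 each) (log2 fold change -1.99 ± 0.26 (SE), edgeR adjusted p = 9.1e-05, and -2.29 without E17.5 replicate 1). Ptgds, a prostaglandin synthase of the meninges and choroid plexus, was the largest rise of a protein-coding gene named by rule, with 0.102, 0.158, 0 and 0 CPM at E11.5 and 209.8, 114, 173 and 155 CPM at E17.5 (log2 fold change 11.24 ± 0.54 (SE), edgeR adjusted p = 3.1e-07, and 11.10 without E17.5 replicate 1). Aldh1a2 (3.73) and Slc6a13 (3.19) rose as well. What part the amount of attached meninges or choroid plexus plays in these values was not tested. Cpne7, a calcium-dependent membrane-binding protein (7.93), and Slc6a7, the brain proline transporter (8.02), completed the 6 largest rises by that rule.

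Ribosomal protein genes fell by a smaller and even amount. Of 34 members, 0 rose, 30 fell and 4 did not pass the test, with a median log2 fold change of -0.95, and 0 rose and 34 fell without E17.5 replicate 1 (median -1.28). Their sum ran from 15360 to 21250 CPM at E11.5 and from 6184 to 11260 CPM at E17.5, with E17.5 replicate 1 the highest of its stage. Rplp0, of the ribosomal stalk, had 694, 924, 629 and 736 CPM at E11.5 and 696, 258, 307 and 276 CPM at E17.5, and its replicate 1 at E17.5 lay within the E11.5 range (log2 fold change -0.96 ± 0.32 (SE), edgeR adjusted p = 0.025, and -1.43 without E17.5 replicate 1). Of 16 genes of ribosome assembly, 1 rose, 9 fell and 6 did not pass the test, with a median log2 fold change of -0.65. Mycn, which drives growth of progenitors, fell (-0.55), while Myc rose (1.58). Ribosomal protein genes have many processed copies, and reads that map to several places were not counted.

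Nuclear-encoded subunits of the respiratory chain showed no called change with all samples. Of 23 members, 0 rose, 0 fell and 23 did not pass the test, with a median log2 fold change of -0.088. At an unadjusted p below 0.05 edgeR had 2 of them. Without E17.5 replicate 1, 7 fell and 1 rose, against 36.3% and 36.0% of all genes tested in that fit. Cox4i1, a subunit of cytochrome oxidase, had 235, 263, 199 and 215 CPM at E11.5 and 429, 148, 205 and 192 CPM at E17.5 (log2 fold change 0.095 ± 0.30 (SE), edgeR adjusted p = 0.81, and -0.34 without E17.5 replicate 1). The 13 mRNAs of the mitochondrial genome all rose, with a median of 1.35, and 1.46 without that library. They took from 0.877% to 1.36% of the counts at E11.5 and from 1.64% to 2.99% at E17.5. mt-Co1 had 3518, 2677, 4279.7 and 3124 CPM at E11.5 and 4619, 7202, 8473 and 8604 CPM at E17.5 (log2 fold change 1.09 ± 0.24 (SE), edgeR adjusted p = 0.0027, and 1.24 without E17.5 replicate 1).

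Polycomb, DNA methylation and CpG-binding genes leaned to lower levels. Of 29 members, 3 rose, 15 fell and 11 did not pass the test, with a median log2 fold change of -0.42. Ezh2, the methyltransferase that writes H3K27me3, had 256, 213, 325 and 268 CPM at E11.5 and 34.3, 58.5, 57.5 and 61.4 CPM at E17.5 (log2 fold change -2.33 ± 0.23 (SE), edgeR adjusted p = 1.4e-05, and -2.17 without E17.5 replicate 1). Dnmt3b, a DNA methyltransferase of early embryos, went from 27.1 ± 2.88 CPM at E11.5 to 4.16 ± 0.5 CPM at E17.5 (SD, n = 4 each) (log2 fold change -2.70 ± 0.19 (SE), edgeR adjusted p = 1.4e-06, and -2.68 without E17.5 replicate 1). Ezh1 (1.26) and Tet1 (1.26) rose. Of 18 splicing regulators, 12 rose, 3 fell and 3 did not pass the test, with a median log2 fold change of 0.88. Rbfox1, which sets neuronal exon use, went from 9.12 ± 3.77 CPM at E11.5 to 157 ± 18.6 CPM at E17.5 (SD, n = 4 each) (log2 fold change 4.11 ± 0.30 (SE), edgeR adjusted p = 2e-06, and 4.17 without E17.5 replicate 1). Esrp1 (-4.80), Ptbp1 (-2.49) and Celf1 (-0.62) fell.

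Among 26 axon guidance genes, 13 rose, 5 fell and 8 did not pass the test, with a median log2 fold change of 0.79. The shares over all genes tested were 29.0% and 26.7%. Dcc, the netrin receptor, had 248, 147, 325 and 183 CPM at E11.5 and 79.9, 203, 151 and 160.2 CPM at E17.5, which overlapped (log2 fold change -0.61 ± 0.31 (SE), edgeR adjusted p = 0.12, and -0.40 without E17.5 replicate 1). Ntn1 (-1.91), Unc5b (-1.58) and Slit3 (-1.47) fell, the first being the netrin that Dcc binds. Of 17 matrix genes, 9 rose, 6 fell and 2 did not pass the test, with a median log2 fold change of 0.94. The filter was passed only through E17.5 by 2 of them. Of the 13 that passed it at both stages, 6 rose and 5 fell, with a median of 0.0016. Bcan, the brain proteoglycan brevican, had 0.102, 0.473, 0.208 and 0.572 CPM at E11.5 and 58.5, 30.4, 30.98 and 39.2 CPM at E17.5 (log2 fold change 6.82 ± 0.44 (SE), edgeR adjusted p = 1e-06, and 6.55 without E17.5 replicate 1), and Hapln1 (-4.55), Lama1 (-2.08) and Fn1 (-1.29) fell. Col4a1, of the vessel basement membrane, fell as well (-0.97).

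Of 16 genes that handle thyroid hormone, steroids and retinoic acid, 13 rose, 1 fell and 2 did not pass the test, with a median log2 fold change of 2.54, and 13 rose and 2 fell without E17.5 replicate 1 (median 2.28). The filter was passed only through E17.5 by 2 of them. Of the 11 that passed it at both stages, 9 rose and 1 fell, with a median of 1.997. Thra, the thyroid hormone receptor, had 90.02, 76.7, 58.7 and 61.1 CPM at E11.5 and 859.7, 329.8, 340.2 and 357 CPM at E17.5 (log2 fold change 2.72 ± 0.34 (SE), edgeR adjusted p = 7.2e-05, and 2.24 without E17.5 replicate 1). Klf9, a target of thyroid hormone and glucocorticoids, had 1.84, 1.84, 2.55 and 1.76 CPM at E11.5 and 7.25, 14.5, 12.1 and 12.2 CPM at E17.5 (log2 fold change 2.53 ± 0.26 (SE), edgeR adjusted p = 1.9e-05, and 2.69 without E17.5 replicate 1). Neither overlapped between stages, and Rarb (-0.63) fell. Of 12 long noncoding RNAs, 5 rose, 2 fell and 5 did not pass the test, with a median log2 fold change of 0.61, and 9 rose and 2 fell without E17.5 replicate 1 (median 0.88). Of all genes tested, 29.0% rose and 26.7% fell, and 36.0% and 36.3% did so without that library. Meg3, a maternally expressed RNA of neurons, had 397, 320.2, 429.9 and 406 CPM at E11.5 and 1351, 5765, 4715 and 5267 CPM at E17.5 (log2 fold change 3.46 ± 0.40 (SE), edgeR adjusted p = 3.9e-05, and 3.75 without E17.5 replicate 1), and H19 (-1.73) and Miat (-1.38) fell. The summed level of this list was 3528 CPM in E17.5 replicate 1 and 10760 to 11250 CPM in the others.

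Of 12 genes of programmed cell death, 3 rose, 2 fell and 7 did not pass the test, with a median log2 fold change of -0.24. Over all genes tested 29.0% rose and 26.7% fell, which is the background of the next list too. Bcl2l11 (-1.94) and Trp53 (-1.63) fell. Of 13 immediate early and heat shock genes, 5 rose, 2 fell and 6 did not pass the test, with a median log2 fold change of 0.11. Fos had 0.306, 0.631, 0.572 and 0.491 CPM at E11.5 and 1.83, 1.957, 0.784 and 1.28 CPM at E17.5 (log2 fold change 1.53 ± 0.39 (SE), edgeR adjusted p = 0.0063, and 1.39 without E17.5 replicate 1), and Ier2 (-1.95) and Atf3 (-1.49) fell. Of the 5 sex-linked genes 0 passed the test, and 0 did so without E17.5 replicate 1. Xist, the RNA of the inactive X chromosome, had 236, 0.683, 747 and 219 CPM at E11.5 and 426, 615, 1710.2 and 1307 CPM at E17.5. Its range within a stage was wider than its difference between stages, in pools whose sex the labels do not give.

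The genes with the highest level per kb of exon were, at E11.5, mt-Co1 (2200.4 CPM per kb), Hbb-y (1914 CPM per kb) and Tuba1a, an alpha-tubulin of young neurons (1646 CPM per kb). At E17.5 they were mt-Co1 (4676 CPM per kb), mt-Cytb (4358 CPM per kb) and mt-Nd1 (4063 CPM per kb), subunits of the respiratory chain. Tuba1a itself did not pass the test (log2 fold change 0.85 ± 0.35 (SE), edgeR adjusted p = 0.062, and 0.28 without E17.5 replicate 1). Its E17.5 replicate 1 held 10529 CPM and the other 3 held 3449, 3938 and 3552 CPM. Among the 500 protein-coding genes with the highest mean level, the smallest differences were those of Wdr82 (0.0037 ± 0.17 SE), Arf1 (0.0050 ± 0.26), Bzw1 (-0.0062 ± 0.29) and Gsk3b (0.0065 ± 0.26). In all 4 the E17.5 replicates were spread wider than the stages were apart, and Arf1 was lower without E17.5 replicate 1 (-0.34, edgeR adjusted p = 0.034).

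Histone marks at gene starts were read from the wild type peak lists of the same tissue and stages, with 2 replicates per mark at E11.5 and 3 at E17.5. H3K4me3 marks active and poised promoters, H3K27ac marks active promoters and enhancers, and H3K27me3 is the mark of Polycomb repression. A gene was counted when a peak overlapped the 1 kb on either side of its annotated start in every replicate of the stage. These shares are a description, without a test, and the annotated start may be that of a rare upstream transcript. Of 4411 genes called 2-fold higher, 38.7% had an H3K27ac peak at E11.5 and 68.2% at E17.5. Of 3121 genes called 2-fold lower these were 56.5% and 57.1%, and of the 10984 other genes tested 63.3% and 71.3%. An H3K27ac peak at E17.5 only was held by 1315 of the genes that rose (29.8%), by 159 of those that fell (5.09%) and by 13.0% of all genes tested.

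H3K27me3 was at the start of 39.1% of the genes that rose when read at E11.5, against 19.5% of those that fell and 13.2% of the others. At E17.5 these shares were 30.5%, 26.1% and 13.4%. A peak at E11.5 only was held by 505 of the genes that rose (11.4%) and by 59 of those that fell (1.89%), and a peak at E17.5 only by 125 (2.83%) and 263 (8.43%). H3K4me3 was at the start, at E11.5 and E17.5, of 72.3% and 75.4% of the genes that rose and 67.3% and 65.2% of those that fell. The order of the classes that rose and fell turned for H3K27me3 at E17.5 with stricter peaks and for H3K4me3 at E17.5 when most of the peak had to lie in the window.

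Over all genes tested, an H3K27ac peak was held by 56.3% at the earlier stage and by 68.2% at the later one, and an H3K27me3 peak by 20.5% and 19.6%. The counts of single lists are given as a description beside these shares. Receptor starts held H3K27ac in 8 of 29 genes at E11.5 and in 24 at E17.5, and H3K27me3 in 15 of 29 genes at E11.5 and in 10 at E17.5. Ion channel starts held H3K27ac in 12 of 29 genes at E11.5 and in 25 at E17.5, and synaptic vesicle starts in 15 of 26 genes at E11.5 and in 22 at E17.5. Fetal timing starts held H3K27ac in 10 of 12 genes at E11.5 and in 10 at E17.5, and H3K27me3 in 3 of 12 genes at E11.5 and in 12 at E17.5. Cell cycle starts held H3K27ac in 35 of 36 genes at E11.5 and in 32 at E17.5 and H3K27me3 in 3 of 36 genes at E11.5 and in 7 at E17.5, the latter near the share of all genes at E17.5. Among endothelial genes, H3K27ac was held in 2 of 16 genes at E11.5 and in 12 at E17.5.

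**Figure D5:**
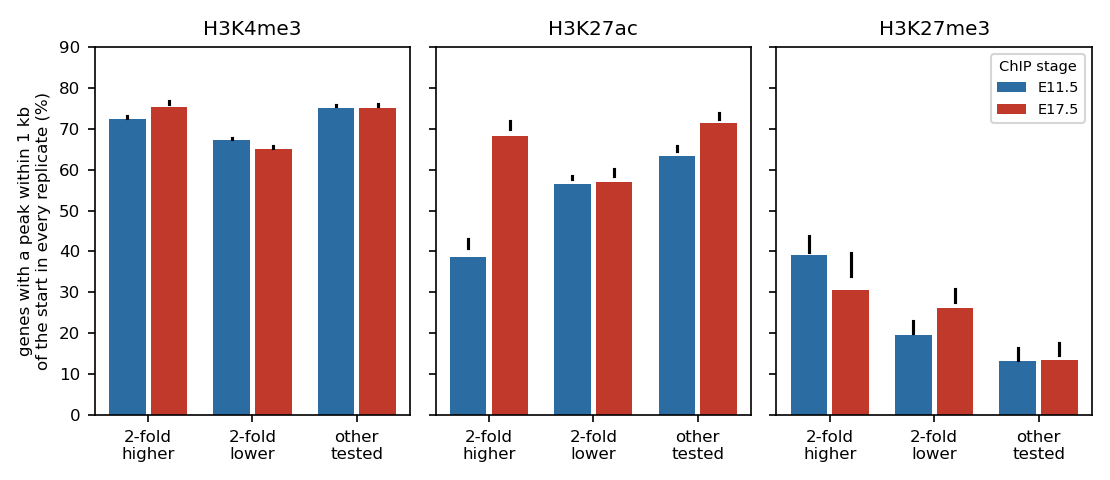
Percent of genes (y axis) with a peak of H3K4me3, H3K27ac or H3K27me3 within 1 kb of the annotated start in every wild type replicate at E11.5 (blue, 2 replicates) and E17.5 (red, 3 replicates), for genes called 2-fold higher, 2-fold lower and other genes tested. Black lines span the shares of single replicates, which lie above the bar because the bar requires a peak in every one: H3K27ac at genes that rose went from 38.7% to 68.2%.

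The genes of each direction also differed in build. Protein-coding genes called 2-fold higher had a median span of 42.2 kb, against 21.7 kb for those called 2-fold lower and 27.7 kb for all tested. A span of at least 100 kb was found in 1056 of the 3744 that rose (28.2%), in 227 of the 2138 that fell (10.6%) and in 16.4% of all. Their exons were closer in length, with medians of 6.59 and 5.68 kb. The median GC content of the longest transcript was 48.2% for those that rose and 50.7% for those that fell. Of 4403 genes that rose 3025 had a RefSeq promoter window, and of 3121 that fell 1787 did. Their median observed over expected CpG was 0.641 and 0.756, against 0.777 for the other genes tested. An E2F spelling was in 2.35% of the promoters of genes that rose and in 6.60% of those that fell, against 3.96% of the others.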

How the data were processed

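RNA from the diencephalon of wild type embryos at E11.5 and E17.5, 4 pools per stage, was compared across genes. Per the labels and the methods, the authors prepared polyadenylated libraries, sequenced read pairs of 150 bases, and aligned them with STAR 2.7.9a to mm39 with GENCODE release 31. They deposited raw counts per gene, without strand and per strand. The unstranded counts were used, and rows that name no gene (48.1% to 55.3% of reads) were dropped. Release 39 gave names and positions for 56236 of 56923 IDs. The stranded count column held 96.2% to 96.4% as many counts. Without strand, overlapping antisense genes cannot be told apart.

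Genes were kept by edgeR's filterByExpr (minimum count 10, about 0.510 CPM in 4 samples), scaled by TMM and tested with edgeR 4.0.16 (glmQLFit and glmQLFTest, limma 3.58.1, R 4.3.3), with Benjamini-Hochberg adjustment over all genes tested. The standard error is the log2 fold change divided by the root of the F statistic. DESeq2 1.42.0 was an alternative. Others were size factors, filters, a fold threshold, the strand column, a fit of all 16 RNA samples, the replicate block, GC offsets in 20 bins (added after the data were seen) and leaving out each library. The fit was tested on simulated data with 18583 genes. Of these, 67 were changed by 1.5-fold, 67 by 2-fold and 66 by 4-fold, and 18383 were left unchanged. In the real comparison 55.7% of genes were called, and the adjustment depends on that share. The simulated shares therefore do not give the recovery or the false calls of the real comparison. In the simulation edgeR found 86.4% of the 4-fold changes, 16.4% of the 2-fold and 0% of the 1.5-fold ones, with 0.0326% of unchanged genes called. For DESeq2 these were 92.4%, 41.8%, 8.96% and 0.131%. Intervals of count ratios cover counting error only.

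Pair ratios used a prior of 0.5 counts and an exact permutation test, two-sided, adjusted over 20 pairs. Wild type peaks were called per replicate by the authors with MACS2 2.2.7.1 after alignment with Bowtie2 2.4.2 to mm39, and the deposited lists give a -log10 q-value for each peak. It served as a threshold in 1 alternative. Peak lists give no read depth. Peaks of H3K27me3 were deposited in broad form, and how they were made for these mice is not given in the sources used here. The H3K27ac antibody lot also binds H2BK5ac, per the methods. Peaks were set against a window of 1 kb on either side of the start by an overlap of at least 1 bp. Promoter windows were of RefSeq build GRCm38.p6 and were joined to genes by symbol only. Python 3.11.15, pandas 2.3.3, numpy 2.4.6, scipy 1.17.1 and matplotlib 3.10.9 were used.

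The members and gene lists (734 genes in 40 lists) were chosen with earlier results of these data known. Of these genes 730 had a row and 687 were tested. The genes named were the anchor genes of the lists, the 6 largest rises and falls among protein-coding genes called 2-fold with at least 20 CPM, genes of the pairs, the 4 smallest differences among the 500 highest, the 3 highest levels per stage, and up to 3 members called against a list's majority. Some genes that this rule names, and 2 of the pairs, are not reported here.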

Additional observations from a re-analysis of the deposited data

Results flagged for a closer look

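A sample was called far from its group when its gap to the nearest other sample exceeded Dixon's 95% critical value, as a share of the range of the 4. Among the 163 named genes, 47 of 326 groups were called, where chance gives about 1 in 20 (16.3). Of the 47, 39 were at E17.5, and in all 39 the sample was replicate 1. Over all 18583 genes, 20.5% of the E17.5 groups and 4.69% of the E11.5 groups were called.

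E17.5 replicate 1 was the highest of its stage in 35 of these groups. The gap was 0.891 for Mcm5, 0.86 for Ccnd1, 0.898 for Cdk5r1, 0.83 for Sox2, 0.952 for Tubb3, 0.931 for Rbfox3, 0.917 for Slc32a1, 0.874 for Dlg4, 0.882 for C1qa and 0.87 for Cldn5 of the range. It was 0.959 for Gbx2, 0.888 for Rplp0, 0.881 for H19, 0.948 for Thra, 0.914 for Slc6a7, 1 for Hbb-bh1, 0.929 for Hemgn, 0.923 for Dpf1, 0.891 for Eno1 and 0.891 for Hk1. The gap came to 0.89 for Ptbp1, 0.977 for Tubb4a, 0.93 for Tubb5, 0.942 for Wdr82, 0.84 for Arf1, 0.931 for Tuba1a, 0.906 for Ccnd3, 0.93 for Cdkn1c, 0.936 for Neurod2 and 0.865 for Slc2a1. For further genes it was 0.971 for Irx5, 0.843 for Emx1, 0.974 for Unc5b, 0.911 for Myc and 0.848 for Atf3. It was the lowest of its stage in 4, by 0.844 for Lin28b, 0.855 for Ezh2, 0.916 for Ss18 and 0.882 for Bzw1. At E11.5 the gap was 0.906 for Cdk5r1, 0.904 for Sox2, 0.883 for Camk2a, 0.836 for Sox10, 0.834 for P2ry12, 0.901 for Slco1c1, 0.897 for Klf9 and 0.861 for Atf3, in different libraries. These levels are per sample and their cause was not tested.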

How the results depend on the processing

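The counts of genes called, at either threshold, stayed within 1.5 times under each alternative except 1, the test against a fold change of 1.5, with 2977 genes lower at E17.5 (glmTreat, adjusted p). Leaving out 1 library at a time gave 4935 to 6968 genes higher and 4152 to 7026 lower, the highest of each without E17.5 replicate 1. Offsets for GC content within a stage, chosen after seeing the data, gave 6258 higher and 6154 lower. Without scaling factors (library size alone) the median log2 fold change of all genes moved by -0.119, so changes of that size are not distinct from the scaling. Replicate numbers did not pair the samples: the deviations of same-numbered samples correlated at 0.0061, -0.504, 0.346 and 0.055, and the labels tie no number to a shared litter or day. With the replicate block 4883 genes were higher and 4583 lower, and the log2 fold change was -0.022 for Cox4i1, -0.011 for Wdr82, -0.070 for Arf1 and -0.027 for Gsk3b. No interaction of stage and genotype was called under any alternative run (0 genes by edgeR and by DESeq2).

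Of 140 named genes called, 0 changed sign under any alternative, and 14 lost the call under at least 1. Genes with differences near 0 changed sign. With library size alone the log2 fold change was -0.051 for Cox4i1, -0.12 for Wdr82, -0.14 for Arf1 and -0.10 for Gsk3b. With the GC offsets the log2 fold change was -0.011 for Cox4i1, -0.025 for Arf1 and -0.015 for Gsk3b. With upper-quartile factors the log2 fold change was -0.059 for Wdr82, -0.061 for Arf1 and -0.043 for Gsk3b. With no filter the log2 fold change was -0.015 for Wdr82, -0.0092 for Arf1 and -0.021 for Gsk3b. With DESeq2's size factors the log2 fold change was 0.051 for Bzw1. With the filter of 1 CPM the log2 fold change was 0.038 for Bzw1. With DESeq2's Wald test the log2 fold change was 0.032 for Bzw1. With the strand column the log2 fold change was 0.012 for Bzw1. With all 16 samples the log2 fold change was 0.0081 for Bzw1. Leaving out 1 library gave -0.032 to 0.84 for C1qa, -0.34 to 0.29 for Cox4i1, -0.69 to 0.017 for Tubb5, -0.15 to 0.076 for Wdr82, -0.34 to 0.17 for Arf1, -0.12 to 0.21 for Bzw1 and -0.16 to 0.16 for Gsk3b. The medians of the mural and microglia lists ran from -0.14 to 0.53 and from -0.066 to 0.25 when 1 library was left out. Medians near 0 of the stress, respiratory chain and sex-linked lists also changed sign under some alternatives. The other 35 lists kept theirs. Pair differences ran, over left-out libraries, from 0.83 to 1.43 for Dpf1/Phf10, 1.92 to 2.85 for Ptbp2/Ptbp1, -4.55 to -3.34 for Glra1/Glra2, -0.092 to 0.48 for Kif5a/Kif5b and -5.22 to -4.01 for Lin28a/Lin28b.

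At promoters the difference between genes that rose and genes that fell was, in percentage points with the stages and marks as reported, 4.99 and 10.2 for H3K4me3, -17.8 and 11.1 for H3K27ac, and 19.6 and 4.41 for H3K27me3. With a -log10 q of at least 5 it was 14.4 for H3K27me3 at E11.5 and -2.51 for H3K27me3 at E17.5. With at least 50% of the peak in the window it was 17.8 for H3K4me3 at E11.5, -1.99 for H3K4me3 at E17.5, -11.5 for H3K27ac at E11.5, 6.51 for H3K27ac at E17.5, 6.83 for H3K27me3 at E11.5 and 0.214 for H3K27me3 at E17.5, and with a window of 250 bp 3.85 for H3K4me3 at E11.5, 10.01 for H3K4me3 at E17.5, -19 for H3K27ac at E11.5, 10.5 for H3K27ac at E17.5, 14.9 for H3K27me3 at E11.5 and 1.24 for H3K27me3 at E17.5. Over left-out replicates it ran from 5.04 to 5.42 for H3K4me3 at E11.5, from 10.3 to 10.4 for H3K4me3 at E17.5, from -16.9 to -15.3 for H3K27ac at E11.5, from 11.3 to 11.7 for H3K27ac at E17.5, from 19.9 to 21 for H3K27me3 at E11.5 and from 4.45 to 6.07 for H3K27me3 at E17.5. The cause of these changes was not tested.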

Other observations

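Beyond the genes named by rule, 3 genes were picked after their values were seen. The long noncoding RNA B230209E15Rik had 0, 0, 0 and 0 CPM at E11.5 and 13.5, 31.5, 19.4 and 27.3 CPM at E17.5, and the noncoding Gm56822 had 0.102, 0.105, 0 and 0 CPM at E11.5 and 20.6, 36.2, 32.1 and 33.3 CPM at E17.5. Both were near 0 in every E11.5 sample. Gabrp, a GABA receptor subunit outside the list of neural receptors, went the other way, with 11.3, 9.25, 6.29 and 6.46 CPM at E11.5 and 0, 0, 0 and 0 CPM at E17.5. No explanation was tested.

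Of 1704 long noncoding RNA genes tested, 418 were called 2-fold higher (24.5%) and 264 lower (15.5%), against 3744 (26.1%) and 2138 (14.9%) of 14353 protein-coding genes. Among the 8227 genes not called, 4796 had an approximate 95% interval of the log2 fold change that lay within a 2-fold change either way.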
